A study of Homo sapiens with 4 samples.

Results

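The transcripts described here are the pseudogene transcripts listed in an experiment of YTHDC1 RNA immunoprecipitation and sequencing (RIP-seq) in MDA-MB-231 cells, over its IP and input libraries. They were chosen as all rows of the deposited transcript table whose transcript type contains the word pseudogene. The rule found 1818 transcripts of 75165 (2.42%), from 1817 gene identifiers and under 12 type names. Ribosomal protein pseudogenes, recognised by names such as RPL23AP42 (RPL or RPS, a number, then P and a number), made up 191 of them.

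MDA-MB-231 is a human triple-negative breast cancer line with mesenchymal traits. The study asked which RNAs are bound by YTHDC1, a nuclear protein that reads N6-methyladenosine on RNA. All 4 libraries came from cells transduced with a lentivirus carrying Flag-YTHDC1 at an MOI of 4, selected with puromycin at 2 µg/ml for 4 days, and exposed to ultraviolet light 3 times at 120000 µJ/cm2 before their nuclei were lysed. In the 2 IP libraries, 500 µg of lysate protein was precipitated with 5 µg of anti-Flag antibody, and the 2 input libraries came from 50 µg of lysate protein. YTHDC1 was therefore overexpressed and tagged in both groups, and no library of untransduced cells is described.

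The value reported for each transcript is the authors' mean normalized count over the 4 libraries together. It mixes IP and input, so a high value does not say that a transcript was bound by YTHDC1, and no comparison of IP with input was made here. No value per library was analysed, so the depth of each library and the spread between replicates are unknown and no test was run. Reads of near-identical copies are divided among them by estimation, so every level below is uncertain where a pseudogene resembles its parent gene. Normalized counts are not divided by transcript length. They are read as reads assigned, and levels per kilobase of gene length in the RefSeq table (GRCh38) are given only for some leading processed pseudogenes and for the ribosomal protein pseudogenes.

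Markers of the cell line were in accord with its label. The mesenchymal genes VIM and AXL had summed means of 80785 and 63189, MSN 28459, CD44 14306, LGALS1 9848 and CAV1 7624. The hormone receptor genes ESR1 and PGR and the epithelial splicing factor ESRP1 were not listed. The epithelial genes CDH1, EPCAM and GRHL2 had summed means of 10.0, 78.3 and 6.58. Not all epithelial genes were low, since the keratin genes KRT8 and KRT18, outside the marker list, had 31132 and 27123. Of the markers of other cell types, ALB and HBB were not listed, PTPRC was at 3.81 and PECAM1 at 102. YTHDC1 itself, the tagged protein's gene, stood at 55488 over 6 transcripts.

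Pseudogenes are copies of genes that have lost the ability to make the original protein. A processed pseudogene arose when an mRNA was reverse transcribed and inserted elsewhere in the genome, so it lacks the parent's introns and promoter. An unprocessed pseudogene arose by duplication of genomic DNA and can keep introns and flanking sequence, and a unitary pseudogene is a gene disabled in place with no working copy in the genome. The prefix transcribed marks those for which the annotation has evidence of RNA. Widely and strongly expressed genes, such as those of ribosomal proteins, left the most processed copies.

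Processed pseudogenes were the commonest members, with 1279 transcripts. Transcribed unprocessed pseudogenes followed with 209, unprocessed with 155 and transcribed processed with 134. The other 8 type names were small, namely transcribed unitary with 17 transcripts, polymorphic with 11, unitary with 7, immunoglobulin V with 2, and immunoglobulin C, rRNA, translated unprocessed and plain pseudogene with 1 each.

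The members received few reads. Their median mean normalized count was 14.5 (quartiles 7.60 and 46.5, range 2.72 to 5205), against 44.2 for all listed transcripts, 91.0 for protein-coding transcripts, 15.7 for long noncoding RNAs and 22.6 for retained-intron transcripts. Together they held 156940 of a summed mean of 33361205, or 0.470%. Those at 100 or more numbered 255 (14.0%), compared with 34.6% of all listed transcripts. The share was 10.9% for long noncoding RNAs and 16.9% for retained-intron transcripts. The lowest members, RPL5P12 and RPL7L1P12, stood at 2.72, which was also the lowest value in the whole table, and AC092447.2 stood at 2.87. NANOGNBP3 and AC127502.3 followed at 2.95 each.

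The types differed in their typical count. The median was 12.9 for processed (quartiles 7.09 and 36.9), 18.0 for transcribed processed (8.84 and 49.7), 19.5 for unprocessed (8.52 and 66.8) and 30.5 for transcribed unprocessed transcripts (10.6 and 132). The interquartile ranges of all 4 overlapped. The share of transcripts at 100 or more ran in the same order, at 11.1%, 13.4%, 18.7% and 28.2%. Among transcripts at 10 or more, however, the medians rose to 28.7, 28.3, 35.0 and 54.0 in that order, so processed and transcribed processed transcripts no longer differed in the same direction. Transcribed unprocessed pseudogenes were thus 11.5% of the members and held 19.5% of their summed mean, while processed pseudogenes were 70.4% of the members and held 56.9%. These medians are not corrected for length. A check against length was void, because a RefSeq length was matched for only 78.1% of the members, under the limit of 80% set for such a check.

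**Figure D1:**
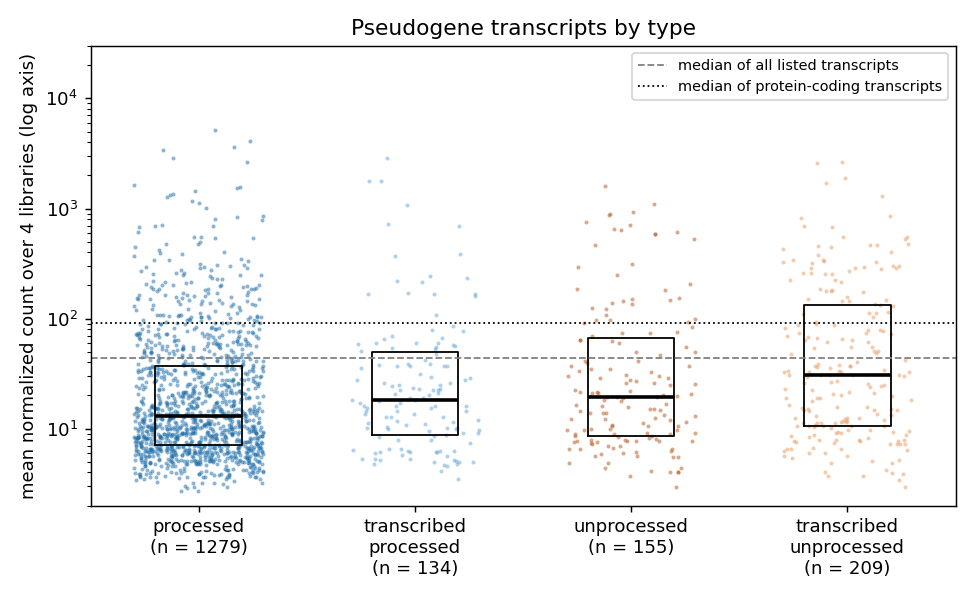
Mean normalized count over the 4 libraries (log axis) of each transcript of the 4 largest pseudogene types, with 1 point per transcript. Boxes give the quartiles and the thick line the median, which runs from 12.9 for processed to 30.5 for transcribed unprocessed transcripts, all below the dashed median of all listed transcripts (44.2) and the dotted median of protein-coding transcripts (91.0).

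The 10 highest transcripts held 20.5% of the members' summed mean and the highest alone held 3.32%. It took 56 transcripts, 3.08% of the members, to reach 50% of the sum. Over all listed transcripts the 10 highest held 16.5% and 1.40% of the transcripts reached 50%, so these measures differ in direction between sets of very unequal size. Among the types, which are of unequal size, 50% of the sum was reached by 31 processed transcripts (2.42% of their number), 4 transcribed processed (2.99%), 10 unprocessed (6.45%) and 14 transcribed unprocessed transcripts (6.70%). For ribosomal protein pseudogenes it took 4 (2.09%). By the percentage of transcripts needed, both unprocessed types were thus the less concentrated ones of the 4. The 10 highest, however, held 31.3% of the sum for processed, 72.1% for transcribed processed, 53.1% for unprocessed and 44.8% for transcribed unprocessed transcripts. On that measure processed transcripts, the largest type, were the least concentrated, so the order of the types depends on the measure.

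**Figure D2:**
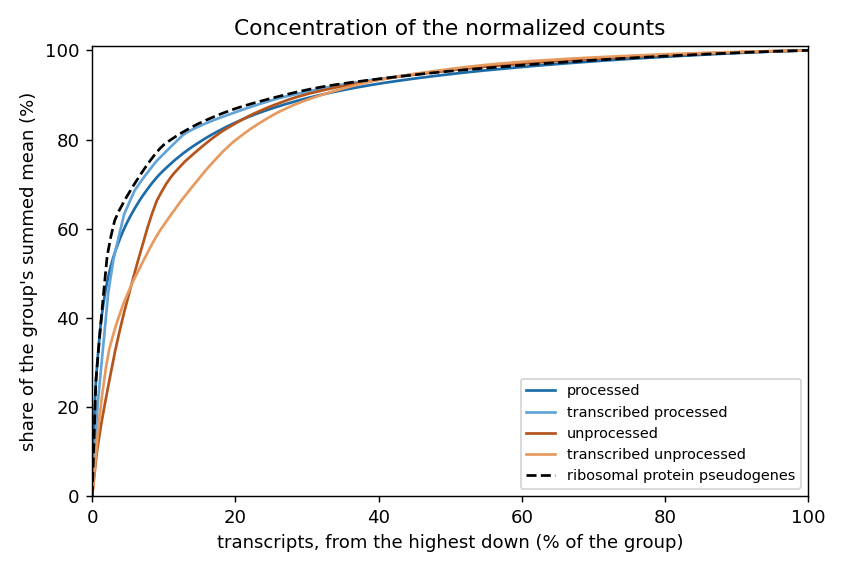
Cumulative share of each group's summed mean normalized count (vertical axis, %) as transcripts are added from the highest down (horizontal axis, % of the group). The curve of the ribosomal protein pseudogenes (dashed) passes 50% at 2.09% of its transcripts, and that of the transcribed unprocessed pseudogenes at 6.70%.

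The leading processed pseudogenes included copies of genes for translation, chromatin and protein turnover. EEF1A1P5 (chr9:133019423-133021169), a copy of the translation elongation factor gene EEF1A1, had the highest mean of all members, 5205. RPL23AP42 (chr3:161429072-161429612), named after a protein of the large ribosomal subunit, followed at 4084. HMGN2P5 (chr15:29730612-29731806), a copy of the nucleosome-binding protein gene HMGN2, had 3634 and lies within the RefSeq span of TJP1, which encodes a tight junction protein. UBE2SP2 (chr17:18677261-18677912), a copy of the gene of a ubiquitin-conjugating enzyme of the anaphase-promoting complex, had 3399 and lies within the span of FOXO3B. AC116533.1 (chr11:16974646-16975044), whose current symbol is RPL36AP37, had 2848 and lies within the span of PLEKHA7. The RefSeq table gives gene spans only, so whether these copies sit in an exon or an intron of the surrounding gene is not given here.

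AC012085.1 had 2646. PSMC1P1 (chr3:68635707-68637247), a copy of a proteasome ATPase gene, had 1625, and RPL22P1 (chr3:169483418-169484020), within the span of MECOM, had 1555. PPIAP22 (chr21:18857737-18858476), a copy of the cyclophilin A gene, had 1534 and RPS28P7 (chr11:82689530-82689904) had 1453. Per kilobase of RefSeq length the order of these leaders changed. RPL23AP42 came to 7549 per kilobase, AC116533.1 to 7138, UBE2SP2 to 5214, RPS28P7 to 3875, HMGN2P5 to 3041 and EEF1A1P5 to 2979.

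Among transcribed processed pseudogenes, 4 transcripts exceeded 1000. AC243919.1 had 2848, AC004057.1 had 1791 and SLC7A5P2 (chr16:21517893-21520444), a copy of the large neutral amino acid transporter gene, had 1784. HMGB1P5 (chr3:22381721-22382915), a copy of a chromatin protein gene, came next at 1081. TPM3P9, named after a tropomyosin gene, had 720 and CICP18 had 700. The current symbol of CICP18 is SEPTIN14P6, so its older name does not give a sure parent. AC060766.1 had 385, AC010507.2 had 370, RPL13P5 had 245 and PDIA3P1, a copy of a protein disulfide isomerase gene, had 233.

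The leading unprocessed pseudogenes included partial copies of genes in segmental duplications, which are long stretches of the genome present more than once. SRGAP2D (chr1:143972639-144069704), a truncated copy of a gene that acts in neuronal migration, had 1616 and CSPG4P11 (chr15:84186820-84192179), a copy of a cell surface proteoglycan gene, had 1098. PKD1P1 on chromosome 16, a copy of the polycystic kidney disease gene PKD1, had 931. WASH8P, of a family of actin-nucleation regulators that lies near chromosome ends, had 888. HLA-H, a class I histocompatibility pseudogene on chromosome 6, had 866 and GUSBP9, a copy of the beta-glucuronidase gene, had 756. AC009533.1 (current symbol DDX12B) had 703, AL732372.3 had 648, MTCO1P12 had 644 and DDX12P had 614.

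Several transcribed unprocessed leaders also lie in duplicated regions. LRRC37A4P (chr17:45505883-45520523), from a duplicated leucine-rich repeat family on chromosome 17, had 2657. H2BP1 on chromosome 1 had 2577, AC138932.1 (current symbol PKD1P3) on chromosome 16 had 1894 and AC241952.2 (current symbol PDE4DIPP2) on chromosome 1 had 1702. AC126755.1 (current symbol PKD1P4) had 1306, which with PKD1P1 makes 3 copies of PKD1 among the leaders of both unprocessed types. CCDC144B had 852, DTX2P1 had 813, WASH2P had 694, ZNF788P had 680 and SMG1P1, a copy of a kinase gene of nonsense-mediated decay, had 556. The RefSeq lengths of these genes include introns, so no level per kilobase is given for them.

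In transcribed genes with more than 1 listed transcript, the pseudogene-type transcript was often not the highest. No gene of the 1279 processed and 155 unprocessed transcripts had another listed transcript. Of the 209 transcribed unprocessed genes, 151 (72.2%) had at least 1 other, and in these the pseudogene-type transcript held a median of 28.8% of the gene's summed mean (quartiles 9.14% and 55.9%). It was the highest transcript in 53 of the 151, held under 10% in 39 and over 90% in 6. Of the 134 transcribed processed genes, 61 (45.5%) had another transcript, the median share was 39.9% (26.6% and 64.9%) and the pseudogene-type transcript was the highest in 26. For transcribed unitary genes, 14 of 17 had another transcript and the median share was 12.6%. With the genes of a single listed transcript included, the median share was 46.6% for transcribed unprocessed genes. It was then 100% for transcribed processed and 48.2% for transcribed unitary genes.

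Single genes covered the whole range. AC138932.1 kept 94.1% of its gene's sum in the pseudogene-type transcript and AC243919.1 kept 81.0%. LRRC37A4P held 27.9% of 9512 normalized counts, with more on its transcript LRRC37A4P-201 (3943), which is typed as a processed transcript, a type without an open reading frame. NBPF8, of a neuroblastoma breakpoint family, held 8.60% of 6196. HERC2P2, a copy of a ubiquitin ligase gene, held 2.12% of 3309, and AFG3L1P, a unitary pseudogene of a mitochondrial protease, held 0.738% of 2899. The other transcripts of the members' genes were chiefly of the processed transcript type, with 486 transcripts at a median of 35.6, beside 67 retained-intron transcripts at 20.2 and 29 protein-coding transcripts at 185.

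**Figure D3:**
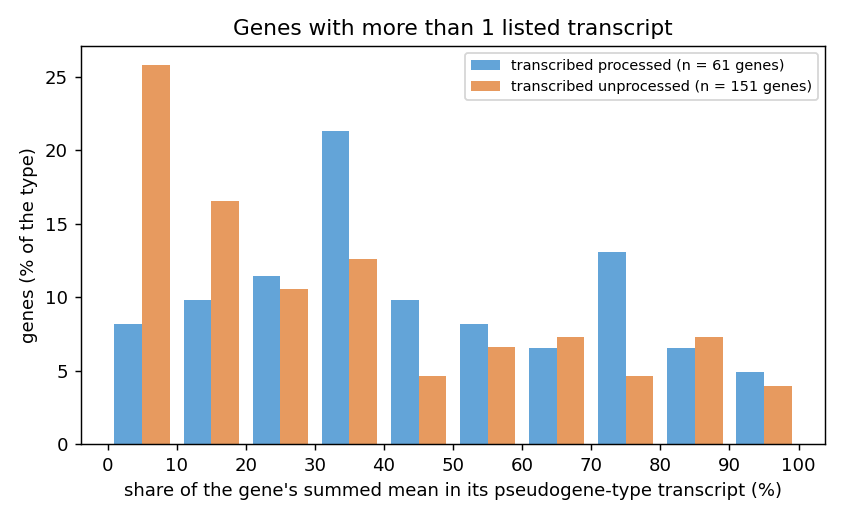
Share of a gene's summed mean normalized count that its pseudogene-type transcript held (horizontal axis, bins of 10 percentage points), for the 61 transcribed processed and 151 transcribed unprocessed genes with more than 1 listed transcript. Bars give the percentage of genes of each type, and 39 of the 151 transcribed unprocessed genes lie under 10%.

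The type name did not always match a pseudogene. Of the 11 polymorphic pseudogene transcripts, a type for genes intact in some people and disabled in others, 8 belonged to genes that RefSeq lists as protein-coding. VEGFA-233, a transcript of the vascular growth factor gene, had 2264, LDHB-211, of a lactate dehydrogenase subunit gene, had 1667, ACP2-210, of a lysosomal phosphatase gene, had 517, BRI3BP-202 had 446 and MDH1-215, of the malate dehydrogenase gene, had 204. Each of these 5 had the same mean to 8 decimals as a protein-coding transcript of its own gene (VEGFA-205 and LDHB-201, for example), so the values of such a pair cannot be told apart. AMD1 and SACM1L had 85.5 and 78.6, AC000095.3 (FAM246C in RefSeq) had 5.42, and the members AKR7L-202, AKR7L-203 and CYP2D7-201, which RefSeq does list as pseudogenes, had 13.7, 11.7 and 5.13.

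Of the 1419 members matched in RefSeq, 1108 were typed there as pseudogenes, 289 as transcribed pseudogenes, 14 as protein-coding and 8 as long noncoding RNAs. The protein-coding ones outside the polymorphic type included NBPF8 at 533, RPSAP58 at 274 (RPSA2 in RefSeq), MSL3P1 at 213 (MSL3B), MYH16 at 62.4, AL365217.1 at 43.4 (ZC3H11C) and TIMM23B at 6.44. By the table's own gene types, 8 member transcripts belonged to protein-coding genes, TIMM23B among them, with TRIM16L-215 the highest at 340 and C9orf129-203 the lowest at 5.95. Equal means to 8 decimals tied 232 members to another listed transcript, but only 22 of these stood at 10 or more. WASH6P appeared at 7.92 under both the X and the Y copy of a pseudoautosomal region, and OR2A9P and OR2A20P, copies of olfactory receptor genes, at 19.1 each.

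Members of the remaining small types ranged from 3.45 to 273. The highest unitary pseudogene was ADAM1A, a disabled gene of a sperm surface protein, at 273, and the other 6 ranged from VN2R19P at 3.45 to ACTBP13 at 27.2. Transcribed unitary pseudogenes had a median of 23.4 and reached 78.5 (C22orf46) and 76.2 (SSPO), with FER1L4 at 25.1. The immunoglobulin pseudogenes IGKV1OR9-2, IGHEP2 and IGKV1OR-2 had 116, 33.4 and 19.5. The rRNA pseudogene RNA5SP174 had 4.96, the translated unprocessed pseudogene PMS2P2 had 4.54 and AC112497.2, the only one typed plainly as pseudogene, had 10.6.

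Ribosomal protein pseudogenes were 10.5% of the members and held 10.0% of their summed mean. By type, 172 were processed, 17 transcribed processed and 2 transcribed unprocessed. Their median mean normalized count was 12.0 (quartiles 7.43 and 34.4), against 14.9 for the other 1627 members, and 20 of the 191 (10.5%) stood at 100 or more. The comparable group, the 1224 other processed and transcribed processed transcripts, had a median of 13.4 with 11.5% at 100 or more. Copies of the large subunit genes numbered 128 with a median of 13.9, and copies of the small subunit genes 63 with a median of 10.3.

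The highest of them was RPL23AP42 at 4084, which alone held 26.0% of their sum. RPL22P1 had 1555, RPS28P7 1453 and RPL18AP3 (chr12:104265269-104265892), which lies within the span of the thioredoxin reductase gene TXNRD1, had 1363. The fifth, RPL13AP5 on chromosome 10, was lower at 693. RPL13AP20 followed at 557, RPL3P4 at 305, RPL13P5 at 245, RPL12P16 within the span of NBEAL1 at 242 and RPL23AP82 at 223. Only the 4 highest of the 191 reached 1000.

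Each of the 191 had a RefSeq gene length, with a median of 660 bp (225 to 42552 bp, the longest being the unprocessed RPL23AP82). Their median level was 18.3 per kilobase (quartiles 11.0 and 49.9, range 0.619 to 7549). Spearman's correlation of the mean with the length across these genes was 0.082, a weak relation given as a description, since all genes share the same 4 libraries. Of the 191, 86 (45.0%) lay within the span of a protein-coding gene on either strand. Their median was 17.4 per kilobase (quartiles 11.8 and 47.2), against 18.3 (10.0 and 52.5) for the 105 outside, so the ranges of both sets nearly coincided. In 76 of the 86 the surrounding gene was itself listed, with a median of 17.4 per kilobase, and in the 10 where it was not the median was 18.4.

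The name rule missed some ribosomal protein copies that the table names after a clone. With current symbols, 80 more members carried such a name, with a median of 13.3, which brings the number to 271. RefSeq held 1885 pseudogenes with symbols of this form, and these 271 were 14.4% of them. The highest of the added ones was AC116533.1 at 2848. The rule also took in RPL7L1P12 and the other copies, 3 in all, of the gene RPL7L1, whose product is related to a ribosomal protein.

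The parent of a pseudogene was taken as the listed gene with a protein-coding transcript whose symbol precedes the final P and number. This gave a parent for 960 members and 494 parents. Names were read as the table gives them, so members named after a clone had no parent. In 9 of these pairs, CICP18 and ACTBP13 among them, the current symbol has another stem, and without them the median ratio below and the 27 copies above their parent stayed at -8.06 and 27. The median log2 ratio of a copy's mean to the summed mean of its parent's protein-coding transcripts was -8.06 (quartiles -9.80 and -5.47). In 630 of the 960 (65.6%) the copy held under 1% of the reads assigned to copy and parent. The median ratio was -8.34 for the 765 processed, -7.35 for the 73 transcribed processed, -5.68 for the 42 unprocessed and -5.65 for the 77 transcribed unprocessed members. Across the 960 pairs, Spearman's correlation of the copy's mean with the parent's was 0.0080, which is close to 0. The points share libraries, and copies of 1 parent share its value.

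For ribosomal protein pseudogenes the median ratio was -9.13, and 164 of 191 held under 1%. Their 54 parents had summed means from 53.3 (RPS28) to 38181 (RPL19), with a median of 8489. These 191 copies together held 15697 normalized counts against 582522 for the parents, or 2.62% of both. The 80 copies recognised only by their current symbols are not in this sum. Spearman's correlation of copy with parent was 0.21 over these 191 pairs.

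A copy exceeded its parent's protein-coding transcripts in 27 of the 960 pairs. Among ribosomal proteins these were RPS28P7 (1453 against 53.3 for RPS28, log2 ratio 4.77), RPL22P1 (1555 against 568 for RPL22, 1.45) and RPL14P1 (204 against 157 for RPL14, 0.38). RPS28 and RPL14 were the lowest parents of the 54. With all listed transcript types of the parent counted, RPS28 stood at 2318 and RPL14 at 12490, above their copies, and RPL22 at 610, still below RPL22P1. AC116533.1 (current symbol RPL36AP37), named after a clone, was outside the 960 pairs. Its 2848 exceeded RPL36A, which had 1626 for protein-coding and 1666 for all listed transcripts. Other members named after a clone were not set against a parent. Of the 27 copies, 15 remained above the parent when all its listed transcripts were counted. With all listed transcripts of the copy's gene summed as well, 19 copies stood above their parent, CROCCP2 among them with 1404 against 1062 for CROCC.

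Those 15 included copies of genes with few reads of their own, set here against all listed transcripts of the parent. CRYBB2P1, a copy of a lens crystallin gene, had 177 against 7.90 (log2 ratio 4.49). MEIS3P1, a copy of a homeobox gene, had 545 against 62.3 over all listed MEIS3 transcripts (3.13), and PGM5P2 had 252 against 32.8 (2.95). DUSP8P5, a copy of a phosphatase gene, had 272 against 62.0 (2.13), and the copies NANOGP5 and NANOGP4 of the pluripotency gene NANOG had 20.4 and 16.0 against 4.78. Among strongly read pairs, CSPG4P11 had 1098 against 1002 for CSPG4 (0.13) and UQCRFS1P1, a copy of a respiratory chain gene, had 805 against 776 (0.05). HMGN2P5 and PDIA3P1 exceeded the protein-coding transcripts of their parents (3634 against 1432 and 233 against 111), but not all listed transcripts (4886 and 5995).

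**Figure D4:**
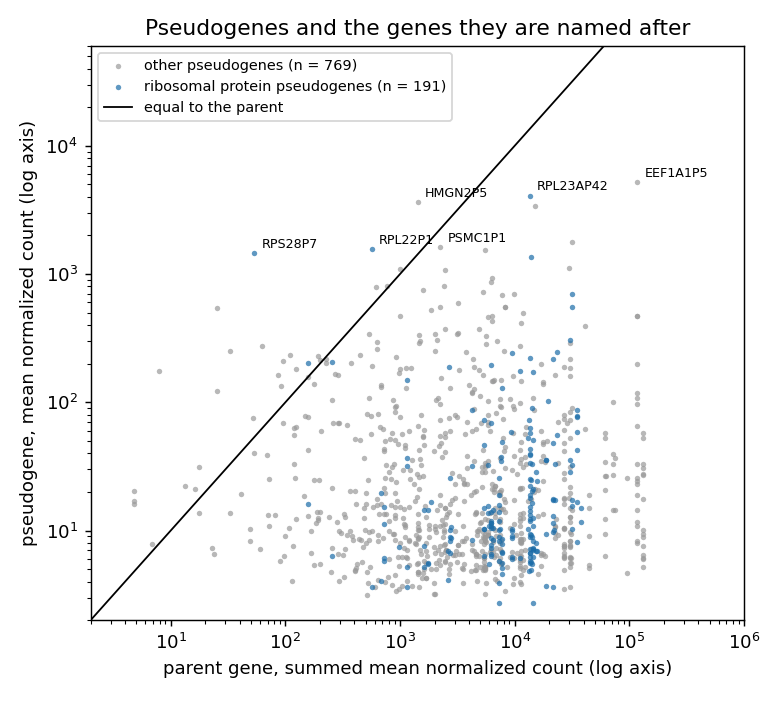
Mean normalized count of each of the 960 pseudogenes with a parent by name (vertical, log axis) against the summed mean of the parent's protein-coding transcripts (horizontal, log axis), with the 191 ribosomal protein pseudogenes in blue. The line marks equality, and 27 copies lie above it, 3 of them ribosomal (RPS28P7, RPL22P1 and RPL14P1).

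Most parents had a single listed copy (347 of 494), and 9 had 10 or more, with 157 copies among them. KRT8 and KRT18, keratins of simple epithelia, and RPL23A had 24 each. KRT8 copies had a median of 12.2 with KRT8P36 highest at 289, KRT18 copies 10.5 with KRT18P31 highest at 187, and RPL23A copies 14.8. EEF1A1 had 18 copies at a median of 29.4, and RPSA, the laminin receptor and ribosomal protein gene, had 18 at 11.4. GAPDH, the glycolytic enzyme gene, had 15, PPIA 12, and HNRNPA1, a splicing regulator, and RPL5 had 11 each.

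Families differed in how far 1 copy stood out. EEF1A1P5 at 5205 was followed by the rest of its family below 500, and PPIAP22 at 1534 was the sole PPIA copy above 100. The 9 HMGN2 copies together had 3693 normalized counts, 3634 of them in HMGN2P5. This was 72.1% of the sum of copies and parent with the parent's protein-coding transcripts (1432), but 43.0% with all its listed transcripts (4886). On the protein-coding measure the share was 38.6% for the 9 HMGB1 copies, 25.9% for RPL23A, 22.9% for PPIA, 5.56% for EEF1A1, 3.96% for KRT8, 2.50% for KRT18 and 0.233% for GAPDH, whose 15 copies ranged only from 5.19 to 57.7.

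**Figure D5:**
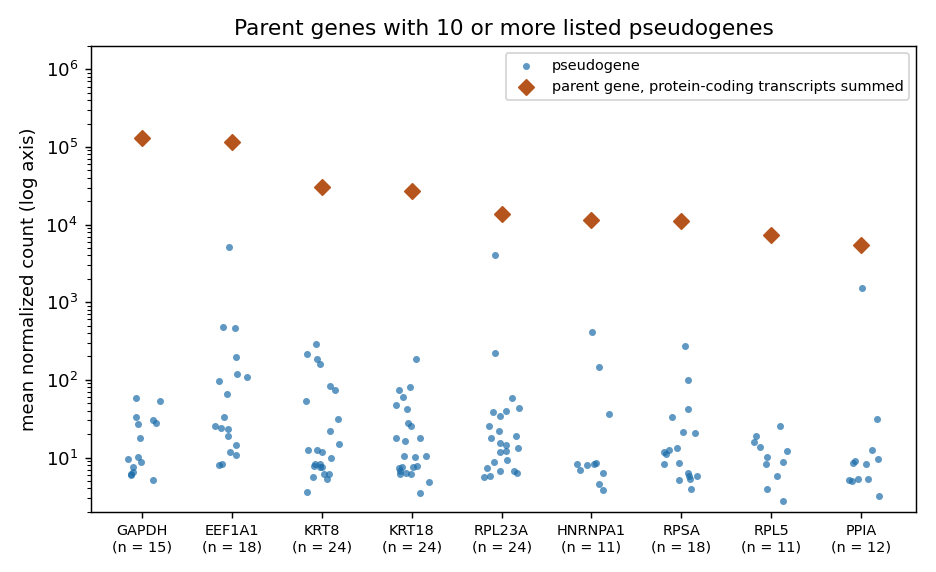
Mean normalized count (log axis) of each listed pseudogene (points) of the 9 parent genes with 10 or more, ordered by the summed mean of the parent's protein-coding transcripts (diamonds). In every family all copies lie below the parent, and EEF1A1P5 (5205), RPL23AP42 (4084) and PPIAP22 (1534) stand apart from the other copies.

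Grouped by chosen parents that share a function, which do not cover every gene of that function, the other lists were as follows. RPSA and the acidic ribosomal stalk genes had 22 copies at a median of 9.90, and the elongation factors EEF1A1 and EEF1B2 had 20 at 29.4, of which 7 exceeded 100. Other elongation factor genes were outside that list, with 5 copies of EEF1D at a median of 10.6 and 3 of EEF1G at 6.10. The glycolytic genes looked up, which included GAPDH, PGAM1, TPI1, ENO1 and PGK1, had 28 copies at 14.6, with TPI1P1 highest at 145. By name, the actin genes ACTB and ACTG1 had 13 at 27.2 (ACTBP7 at 100 the highest), or 12 at 29.8 without ACTBP13, a unitary pseudogene whose current symbol is ACTL11P, and KRT8 and KRT18 together 48 at 11.1. Tubulin genes had 2, of which TUBB2BP1 had 135. Genes of heterogeneous nuclear ribonucleoproteins, which package and splice nuclear RNA, had 24 copies at 9.95 with HNRNPA1P10 at 416, and the HMGB and HMGN genes of the high mobility group had 27 at 8.47, without the HMGA1 copies given below.

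Ferritin genes had 9 copies at a median of 13.6 and mitochondrial and cytosolic chaperone genes 8 at 17.0. The 14-3-3 (YWHA) genes had 6 at 20.6, NPM1, a nucleolar chaperone gene, had 7 at 12.5 with NPM1P27 at 493, and PTMA had 4 at 22.2. Proteasome and chaperonin subunit genes had 7 at 9.20, of which PSMC1P1 stood at 1625. Calmodulin, nucleolin and metallothionein genes had 1 copy each by this name rule, at 9.47 (CALM2P2), 19.7 (NCLP1) and 6.32 (MT1XP1). Of the histone pseudogenes the rule paired only H2AZ2P1, at 15.9. Others were listed without a parent by name, among them H2BP1 at 2577, H3P4 at 465, H2BC19P at 404, H3P6 at 386 and H2BP2 at 298, which were picked out after their values were seen. TPT1, PTBP1 and VIM had 0 listed copies under such names.

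Of 41 pseudogenes looked up by name because they are often studied or lie in duplicated regions, 16 were in the table. ANXA2P2, a copy of annexin A2, had 1118 against 29460 for ANXA2 (-4.72), and ANXA2P1 had 17.9. SUZ12P1, a copy of a Polycomb subunit gene, had 33.2 against 890. RPSAP52 had 6.30, LGMNP1 13.3, INTS6P1 10.0, NSUN5P2 25.4, NCF1C 6.25 and MYLKP1 4.05. The histocompatibility pseudogenes HLA-J and HLA-L had 149 and 51.1, below HLA-H at 866. CROCCP3 and CROCCP2, copies of a ciliary rootlet gene, had 226 and 93.2. All these are values of the pseudogene-type transcript alone. With all listed transcripts of the gene summed, CROCCP2 came to 1404 and CROCCP3 to 415, which turned their order, and SUZ12P1 came to 245, NSUN5P2 to 232, HLA-J to 172, HLA-L to 153 and RPSAP52 to 66.4.

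The duplicated families were represented too, again by the pseudogene-type transcripts alone. WASH had 5 listed transcripts from 7.92 to 888, HERC2P 7 from 9.21 to 461 (HERC2P9), PMS2P, copies of a mismatch repair gene, 6 from 4.54 to 91.7, and GOLGA, copies of Golgi matrix genes, 6 from 6.52 to 61.8. NBPF had 3 from 11.3 to 533, FAM86 2 at 7.40 and 27.3, and HMGA1P, copies of a chromatin architecture gene, 4 from 24.3 to 49.2, against 17802 for HMGA1. With all listed transcripts of the gene summed, HERC2P9 came to 1322, below HERC2P2 at 3309. By such sums NBPF8 came to 6196, WASH2P to 1010 and GOLGA2P10 to 475.

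Pseudogenes of mitochondrial origin are pieces of mitochondrial DNA inserted into the nuclear genome, and 5 were listed. MTCO1P12 (chr1:631074-632616) had 644, while its source MT-CO1, a subunit gene of cytochrome oxidase, had 33573, 52.2-fold more. MTATP6P1 (chr1:633696-634376) had 146, with 25.6-fold more at MT-ATP6. MTND2P28 (chr1:629640-630686) had 73.5 and MTND1P23 (chr1:629062-629440) had 30.2, with 63.8-fold and 422-fold more at MT-ND2 and MT-ND1. MTND4P12 (chr5:134926661-134928036) had 84.9, with 67.5-fold more at MT-ND4. The first 4 named lie within a single stretch of chromosome 1, and the folds to their sources differed among them. The libraries came from nuclei, yet the mitochondrial genes were strongly read, and how many reads these copies drew from them was not tested.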

How the data were processed

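RIP-seq of 2 IP and 2 input libraries was described by 1 deposited table of transcripts. According to the study's methods and the submitters' processing notes, the authors aligned reads with STAR (2.7.2b), with GENCODE annotation (GRCh38), estimated transcript counts with RSEM (1.2.31), removed transcripts with few reads in most samples, corrected batch effects with RUVSeq and compared groups with DESeq2. The signal value the authors deposited is the mean normalized count per transcript over the 4 libraries, their pooled value with no SD or n. The depth per library is unknown. The other 4 numeric columns hold the authors' own comparison (fold change, its standard error, p-value and adjusted p-value) and were not used. The methods word that comparison as a knockdown, whereas the labels give IP and input.

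Members were selected by transcript type in Python (3.11.15) with pandas (2.3.3), and scipy (1.17.1) gave rank correlations. No test was run. Gene identifiers of 1813 members matched a gene name table and 1419 matched RefSeq (GRCh38). No sequence is shown. Named were the 10 highest transcripts of each of the 4 largest types, the 10 highest ribosomal protein pseudogenes, the 5 parents with most copies, the lowest members and fixed lists of studied pseudogenes and parent families. Some members of these lists are not reported here. Other names (small types, equal means, RefSeq types, copies above the parent, mitochondrial copies) were chosen after their values were seen. Members and lists were chosen with earlier results of these data known. Scripts were tested on simulated data.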

Additional observations from a re-analysis of the deposited data

How the results depend on the processing

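Requiring a mean of at least 10 or 100 left 1153 or 255 of the 1818 transcripts. At 10 or more the medians became 28.7 for processed, 28.3 for transcribed processed, 35.0 for unprocessed and 54.0 for transcribed unprocessed transcripts, so the order of both processed types turned. The share of ribosomal protein pseudogenes was 7.84% at 100 or more and 14.9% with current symbols. The 10 highest held 19.0% of the summed mean without the highest transcript and 21.2% without ribosomal protein pseudogenes. The median log2 ratio to the parent moved from -8.06 to -8.38 with all transcripts of the parent, -7.59 with its highest transcript and -6.80 for copies at 10 or more. For ribosomal protein pseudogenes it moved from -9.13 to -9.51, -8.77 and -8.74. The number of copies above their parent was 15 in place of 27 with all transcripts of the parent, 31 with all transcripts of the copy's gene and 19 with both. The remaining alternatives moved their values by less than their intervals or 1.5 times. Some of them could not move. Summing members per gene left the type medians as they were, since each gene had a single member of its type. No ribosomal protein pseudogene had a name beginning with RPS6K, so leaving such names out changed nothing. Leaving out the Y copies of the pseudoautosomal region, leaving out polymorphic pseudogenes, using current symbols and counting other transcripts of the copy's gene, or of the parent in the number above it, were chosen after seeing the data. No paired analysis was possible because the values used are means over all 4 libraries, and for the same reason no replicate was left out. Depth limits the low members most, and those near 2.72 rest on few reads.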
